A study of Mus musculus with 6 samples.

Results

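Z-disc, M-band, titin-linked and intermediate filament genes, the scaffold of the muscle sarcomere, were followed in mouse embryos at E9.5, in dissected outflow tract (OFT) together with anterior dorsal pericardial wall (aDPW). The 32 genes were chosen by name and function, with earlier results of these data known, and all 32 were found among the 25888 genes of the FPKM table. Mutant embryos were Hand2flox/flox; Mef2c-AHF-Cre on C57BL/6, and lack Hand2, a heart transcription factor with a basic helix-loop-helix domain, where the Cre is or was active. Mef2c-AHF-Cre is a transgene driven by an anterior heart field enhancer of Mef2c, so cells of other origin in the same dissection keep Hand2. Control embryos were labelled control, on C57BL/6, and the labels do not say whether they carried floxed alleles or the Cre. Each group had 3 RNA-seq libraries from tissue pooled over embryos, and nothing says that the pools came from separate litters, so the p-values rest on the spread among 3 libraries a group, which may be technical. The question of the comparison is which scaffold genes of the region differ when this lineage loses Hand2.

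The sarcomere is the contractile unit of striated muscle. Thin actin filaments are anchored at the Z-disc, where alpha-actinin crosslinks them and LIM and PDZ domain proteins bind, and thick myosin filaments are held in register at the M-band. Titin reaches from the Z-disc to the M-band, and desmin intermediate filaments tie neighbouring Z-discs together and to the cell membrane. In the early heart these proteins are assembled as progenitor cells of the second heart field, which lie in the dorsal pericardial wall, enter the outflow tract and become muscle.

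Recovered whole reads summed to 23190075 to 26345389 in mutant libraries and to 25002554 to 30137655 in control libraries. At this depth 1 read in a gene with 1 kb of exons was worth 0.0322 to 0.0435 FPKM. Hand2 had 34.6, 22.2 and 17.9 FPKM in mutant libraries 1 to 3, against 116, 64.3 and 81.7 FPKM in control libraries 1 to 3, and the groups did not overlap (two-sided exact permutation p = 0.1, which is the lowest possible with groups of 3). The libraries numbered 1 in both groups stood apart from the others. The library of control 3 carried transcripts listed as markers of yolk sac and liver endoderm. Afp, Apoa1 and Ttr summed to 439 FPKM there and to at most 3.29 FPKM elsewhere. Which tissue they came from was not tested. All 9 cardiomyocyte markers and all 4 second heart field markers listed were measured. The 6 transcription factor genes listed as markers of skeletal muscle and somite (Myod1, Myog, Myf5, Myf6, Pax3 and Pax7) summed to 0.504 to 0.806 FPKM in mutants and to 0.364 to 0.566 FPKM in controls.

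Sarcomere scaffold transcripts were lower in mutants for most of the set. Of the 32 genes, 25 reached a mean of 1 FPKM over the 6 libraries and were tested. The main test used no block, and a further fit used the replicate number as a block. The labels do not pair the libraries, so this pairing was read from the same data. With the replicate number as a block, which compares mutant 1 with control 1 and so on, limma's test was read at an adjusted p under 0.05. Then 15 of the 25 fell and 0 rose, against 3.70% of all 12650 genes tested that fell and 1.42% that rose. At an unadjusted p under 0.05 with the block, 17 of the 25 were lower and 2 higher, against 1716 and 1183 of all genes tested. Without the block, 0 of the 25 passed in limma and 0 in voom on recovered reads (12 lower and 0 higher at an unadjusted p under 0.05 by each tool, against 4.32% of all genes lower by limma). Of all genes, limma then called 0.150% lower and 0.0237% higher, and voom 0.142% and 0.0316%. With array weights, which weigh each library by its fit, and no block, 13 fell (all of the 15 but Tcap and Flnc) and 0 rose. Of all genes, 2.76% and 1.53% did. At an unadjusted p under 0.05 with these weights, 17 of the 25 were lower and 1 higher, against 1775 and 1479 of all genes tested. By voom with the block 16 fell and 1 rose, against 5.72% and 4.48%. Groups did not overlap, with mutants below, for 11 of the 25, against 6.85% of all genes tested, and 18 of the 25 were lower in all 3 same-numbered pairs, against 25.1%. The median log2 fold change was -0.49 over the 25 tested and -0.0068 over all genes tested, and over all 32 genes without a filter it was -0.36.

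The 32 genes together took 0.229%, 0.244% and 0.302% of the FPKM sum in mutant libraries 1 to 3, against 0.309%, 0.340% and 0.412% in control libraries 1 to 3. All 3 mutant shares lay below all 3 control shares. The 3 most abundant per length, Ankrd1, Des and Actn2, kept places 1 to 3 in both groups. Obsl1 stood in place 4 among the genes in mutants and 9 in controls, and Csrp3 in place 9 in mutants and 4 in controls. In bulk tissue, fewer muscle cells and less RNA per muscle cell cannot be told apart. The 9 cardiomyocyte markers, of which Tnnt2, Tnnc1, Tnni1, Myl7, Myl4 and Myh7 fell with the block and Myl2, Myh6 and Nkx2-5 did not pass, summed to 2660 to 4219 FPKM in mutants and 3536 to 6183 FPKM in controls. The smooth muscle markers Acta2, Tagln, Cnn1 and Myh11 summed to 1107 to 1390 FPKM in mutants and 1638 to 2453 FPKM in controls. Acta2, Tagln and Cnn1 fell with the block, and Myh11 was not tested. The 5 endothelial markers summed to 56.0 to 63.3 FPKM in mutants and 73.2 to 78.7 FPKM in controls. Pecam1, Cdh5 and Emcn fell with the block, and Kdr and Tek did not pass. None of the smooth muscle or endothelial markers tested passed in limma without the block. The second heart field markers Isl1, Fgf10, Tbx1 and Mef2c summed to 119.7 to 175 FPKM in mutants and 81.3 to 101 FPKM in controls, most of it from Tbx1, which rose with the block (limma adjusted p = 0.0197, and 0.383 without it) while Isl1 fell (0.0266, and 0.515 without it). The part of these 4 marker lists in the results below was not tested.

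**Figure D1:**
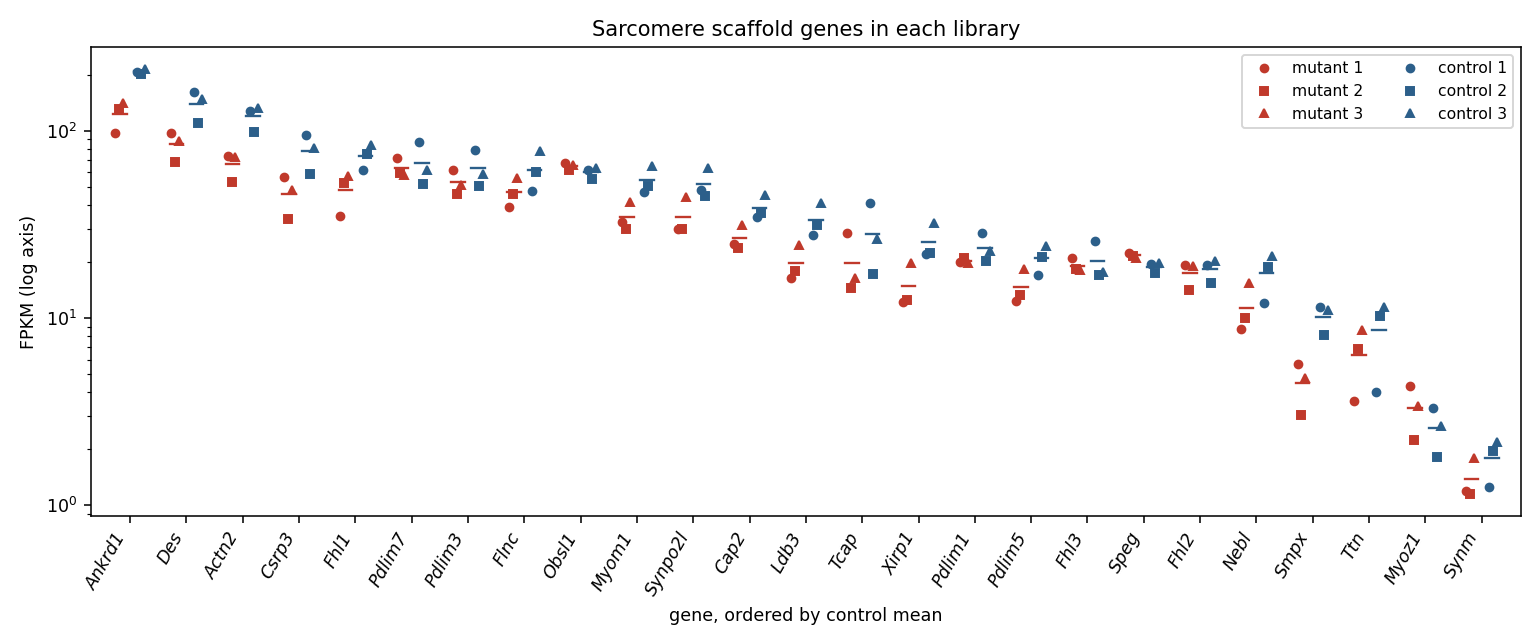
FPKM on a log axis for the 25 genes with a mean of at least 1 FPKM, ordered by the control mean, with mutant libraries in red to the left of control libraries in blue, symbols for library numbers and a line for each group mean. Ankrd1, Des and Actn2 separate the groups, while Obsl1, Speg, Fhl2 and Fhl3 lie at nearly the same height in both.

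Promoter windows were read because serum response factor and MEF2 are known activators of sarcomere genes. Whether these factors had a part in the differences was not tested. RefSeq windows on GRCm38, from 250 bases before to 50 after a transcription start, were found for 26 of the 32 genes, and a gene was counted if any of its windows held the motif on either strand. The CArG box, the site of serum response factor, was in 5 of the 26 (19.2%), against 1.81% of 27025 genes. The MEF2 site was in 6 of the 26 (23.1%), against 3.70% of all. The E-box CANNTG, the core bound by basic helix-loop-helix factors such as Hand2, was in 20 of the 26 (76.9%), against 75.0% of all. Of the 13 genes with a window that fell with the block, 4 held a CArG box, 1 a MEF2 site and 10 an E-box. The 1 with a MEF2 site was Synpo2l. The others with a MEF2 site were Ttn, Speg and Fhl2, which did not pass in limma, and Myoz2 and Xirp2, which were not tested. A match is a description of the letters and not a bound site. The 250 bases before the start are shown for the 4 genes with a CArG box that fell with the block (Ldb3, Myom1, Fhl1 and Nebl) and, beside its relative Fhl1, for Fhl2, which held one too and did not pass. Capitals mark the CArG box.
Ldb3, chr14:34588608-34588857 (minus strand): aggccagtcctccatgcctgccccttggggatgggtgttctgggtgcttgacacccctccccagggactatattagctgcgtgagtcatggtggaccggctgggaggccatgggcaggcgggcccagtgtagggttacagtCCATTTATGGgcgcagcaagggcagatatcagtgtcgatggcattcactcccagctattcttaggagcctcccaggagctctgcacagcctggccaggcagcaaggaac
Myom1, chr17:71019307-71019556 (plus strand): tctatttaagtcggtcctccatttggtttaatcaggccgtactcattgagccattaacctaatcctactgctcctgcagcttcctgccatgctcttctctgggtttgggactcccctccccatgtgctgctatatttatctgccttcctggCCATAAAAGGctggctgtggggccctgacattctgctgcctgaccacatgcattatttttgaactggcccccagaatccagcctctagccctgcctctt
Fhl1, chrX:56779433-56779682 (plus strand): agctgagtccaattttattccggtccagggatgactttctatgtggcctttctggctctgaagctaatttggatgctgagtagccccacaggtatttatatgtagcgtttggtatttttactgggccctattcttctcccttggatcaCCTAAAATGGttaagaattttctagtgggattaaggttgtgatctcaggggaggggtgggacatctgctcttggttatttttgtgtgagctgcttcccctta
Nebl, chr2:17462857-17463106 (minus strand): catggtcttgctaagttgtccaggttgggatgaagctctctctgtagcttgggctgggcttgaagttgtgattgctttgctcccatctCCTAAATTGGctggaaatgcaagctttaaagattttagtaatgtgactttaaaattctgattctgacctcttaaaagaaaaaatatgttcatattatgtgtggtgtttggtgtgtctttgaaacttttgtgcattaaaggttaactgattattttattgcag
Fhl2, chr1:43163962-43164211 (minus strand): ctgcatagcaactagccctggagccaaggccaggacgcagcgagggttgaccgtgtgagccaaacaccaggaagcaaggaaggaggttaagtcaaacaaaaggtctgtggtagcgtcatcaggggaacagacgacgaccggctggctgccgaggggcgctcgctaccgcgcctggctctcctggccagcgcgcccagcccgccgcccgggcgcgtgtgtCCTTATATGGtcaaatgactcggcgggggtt
Counted from the transcription start, the first base of the box lay at -109 in Ldb3, -99 in Myom1, -102 in Fhl1, -162 in Nebl and -31 in Fhl2. The windows shown for Myom1, Fhl1, Nebl and Fhl2 lie inside the GENCODE extent of the gene, that of Nebl far from its 5' end at 17731464. Whether these inner starts are used in this tissue was not tested. Ldb3 had a second, overlapping window that held the same box, Nebl had 3 further windows and Fhl1 1 further window without one, and the other listed window of Fhl2 held both a CArG box and a MEF2 site.

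Of the 5 Z-disc core genes tested, Actn2, Ldb3, Synpo2l and Flnc fell with the block and Myoz1 did not pass. Actn2, the muscle alpha-actinin that crosslinks thin filaments at the Z-disc, had 73.2, 53.4 and 72.9 FPKM in mutants 1 to 3, against 128, 98.2 and 133 FPKM in controls 1 to 3. The groups did not overlap, and the difference was -0.80, -0.87 and -0.86 on the log2 scale in pairs 1 to 3. The log2 fold change was -0.84 (SE 0.18 without the block and 0.05 with it), with a limma adjusted p of 0.234 without the block and 0.00244 with it, and 4.93e-05 to 0.798 over 22 alternative settings. Ldb3 encodes cypher, a PDZ-LIM protein that binds alpha-actinin. It had 16.3, 17.8 and 24.7 FPKM in mutants and 27.8, 31.6 and 41.3 FPKM in controls, without overlap, a log2 fold change of -0.75 (SE 0.19; limma adjusted p = 0.380 without the block and 0.00257 with it). Synpo2l, an actin- and alpha-actinin-binding protein of heart and skeletal muscle, had 29.8, 30.0 and 44.2 FPKM in mutants and 48.4, 45.2 and 63.2 FPKM in controls. Its groups did not overlap either, and its log2 fold change was -0.59 (SE 0.19; limma adjusted p = 0.551 without the block and 0.00760 with it).

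Flnc, the muscle filamin that links the Z-disc to the membrane, had 39.4, 46.2 and 55.9 FPKM in mutants and 47.8, 60.3 and 78.0 FPKM in controls. Here the groups overlapped, although each mutant library was below the control library of its number. The log2 fold change of Flnc was -0.37 (SE 0.20; limma adjusted p = 0.847 without the block and 0.0282 with it). Cap2, an actin-binding cyclase-associated protein of striated muscle, had 24.9, 23.7 and 31.6 FPKM in mutants and 34.4, 36.4 and 45.5 FPKM in controls. Its groups did not overlap, with a log2 fold change of -0.52 (SE 0.15; limma adjusted p = 0.431 without the block and 0.00873 with it). Myoz1, a calsarcin that binds alpha-actinin and calcineurin, went against the others. It had 4.31, 2.23 and 3.39 FPKM in mutants and 3.29, 1.82 and 2.64 FPKM in controls, higher in all 3 pairs (20.5% of all genes tested were) with overlapping groups, and did not pass (log2 fold change 0.26, SE 0.22; limma adjusted p = 0.980 without the block and 0.0888 with it).

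The titin-linked genes Tcap, Csrp3 and Ankrd1 fell with the block, and titin did not pass in limma. Titin itself (Ttn), the giant protein that sets sarcomere length, had 3.62, 6.87 and 8.61 FPKM in mutants and 4.03, 10.3 and 11.5 FPKM in controls. The groups overlapped, with the lowest value of each in library 1, and the log2 fold change was -0.34 (SE 0.40 without the block and 0.08 with it). Ttn did not pass in limma (adjusted p = 1.00 without the block and 0.0858 with it), and by voom with the block, it was called lower (adjusted p = 0.0260). Tcap, or telethonin, which caps the titin N terminus at the Z-disc, had 28.5, 14.5 and 16.3 FPKM in mutants and 41.0, 17.2 and 26.6 FPKM in controls. Its groups overlapped and its log2 fold change was -0.47 (SE 0.35; limma adjusted p = 0.942 without the block and 0.0453 with it), so its call lay close to the threshold.

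Csrp3, the muscle LIM protein of the Z-disc, had 56.7, 33.9 and 48.1 FPKM in mutants and 94.7, 58.8 and 80.7 FPKM in controls. No mutant value reached a control value, and the pair differences were -0.73, -0.77 and -0.73. The log2 fold change of Csrp3 was -0.75 (SE 0.24 without the block and 0.05 with it; limma adjusted p = 0.502 and 0.00257, and 8.15e-05 to 1.00 over the 22 settings). Ankrd1, the cardiac ankyrin repeat protein that binds titin and also acts in the nucleus, was the most abundant of the set per length. It had 97.5, 131 and 141 FPKM in mutants and 207, 202 and 215 FPKM in controls, with the control libraries within a narrow range and the mutants all below it. The log2 fold change was -0.77 (SE 0.16; limma adjusted p = 0.231 without the block and 0.0194 with it, and 0.00104 to 0.789 over the 22 settings), and pair 1 differed by -1.08 while pairs 2 and 3 differed by -0.62 and -0.61. Smpx, a small protein of striated muscle found at costameres, had the lowest fold change of the 25. It had 5.70, 3.04 and 4.79 FPKM in mutants and 11.4, 8.14 and 10.99 FPKM in controls, without overlap, a log2 fold change of -1.04 (SE 0.21; limma adjusted p = 0.202 without the block and 0.00280 with it, and 0.000279 to 0.722 over the 22 settings).

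Desmin, the intermediate filament of muscle, fell with the block and synemin did not pass. Des had 97.7, 68.1 and 88.8 FPKM in mutants and 161, 110.4 and 147 FPKM in controls. The groups did not overlap, and the pair differences of -0.71, -0.69 and -0.72 lay within a narrower range than the libraries of either group. The log2 fold change of Des was -0.71 (SE 0.19 without the block and 0.05 with it; limma adjusted p = 0.394 and 0.00332, and 9.18e-05 to 1.00 over the 22 settings). Synm, which encodes the desmin partner synemin, was near the lower limit of what was tested, with 1.19, 1.14 and 1.79 FPKM in mutants and 1.25, 1.96 and 2.183 FPKM in controls. It was lower in all 3 pairs with overlapping groups (log2 fold change -0.23, SE 0.17; limma adjusted p = 0.944 without the block and 0.266 with it).

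Of the M-band genes, Myom1 fell with the block. It encodes myomesin, which crosslinks titin and myosin there, and had 32.4, 30.1 and 41.9 FPKM in mutants and 47.2, 50.9 and 65.3 FPKM in controls. Its groups did not overlap and its log2 fold change was -0.63 (SE 0.17; limma adjusted p = 0.392 without the block and 0.00698 with it). Obsl1, the obscurin-like protein, which is also made outside muscle, had 67.7, 61.9 and 65.5 FPKM in mutants and 62.1, 55.3 and 63.5 FPKM in controls, higher in all 3 pairs with overlapping groups (log2 fold change 0.11, SE 0.10; limma adjusted p = 0.990 without the block and 0.276 with it). Speg, a kinase of the obscurin kind with splice forms in striated and smooth muscle, had 22.3, 21.5 and 21.0 FPKM in mutants and 19.4, 17.4 and 19.7 FPKM in controls. It was the 1 gene of the 25 whose mutant values all lay above the control values, as did those of 5.44% of all genes tested. Its log2 fold change of 0.19 (SE 0.09) did not pass in limma (adjusted p = 0.774 without the block and 0.126 with it) and was called higher by voom with the block (adjusted p = 0.0409). Exons of Myom1 share 207 bases with Myl12a on the opposite strand, a gene at 114.8 FPKM, and whether counting used the strand is unknown, so reads from that stretch cannot be told apart.

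**Figure D2:**
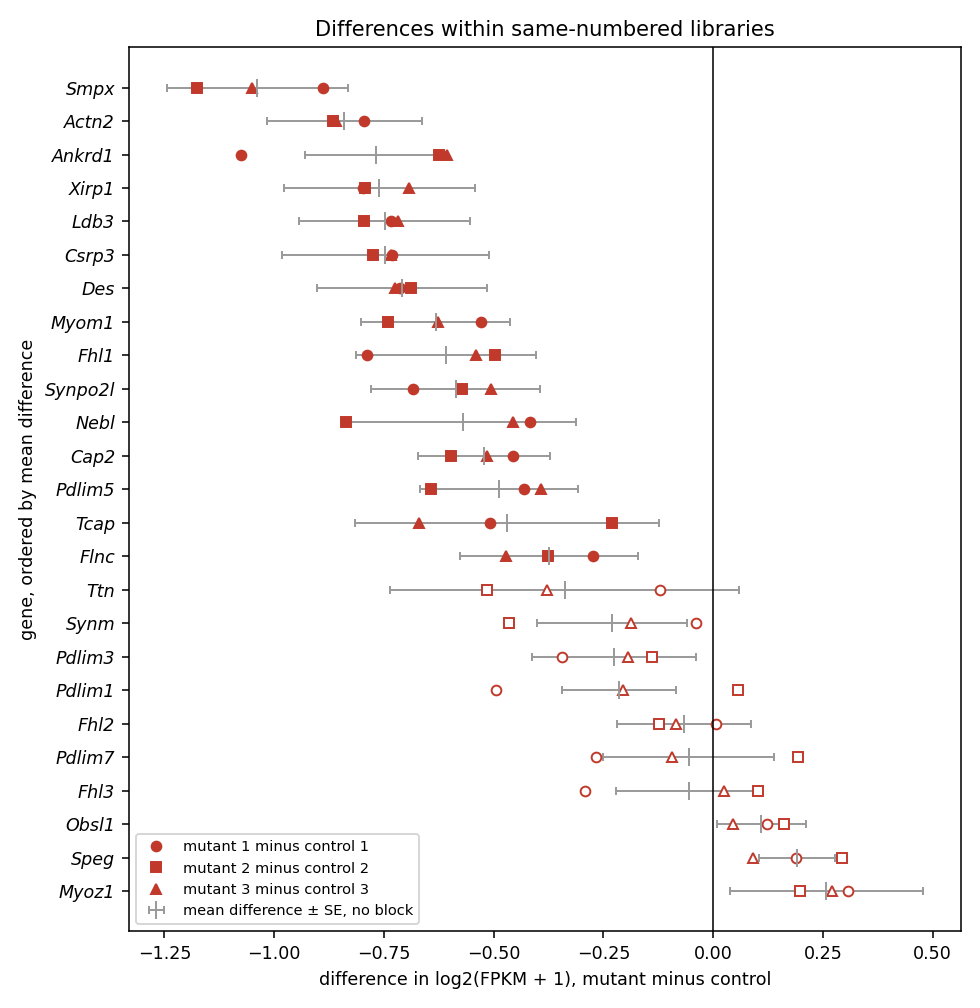
Difference in log2(FPKM + 1) between the mutant and the control library of the same number (red symbols, filled where limma's adjusted p with the block was under 0.05) and the mean difference with its standard error from the fit without the block (grey), for the 25 genes tested. The symbols of Des, Csrp3, Ldb3 and Xirp1 lie close together well inside the grey bars, and those of Obsl1, Speg and Myoz1 lie above 0.

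The nebulin and Xin repeat genes each had 1 well expressed member. Nebl encodes nebulette, the short cardiac relative of nebulin at the Z-disc, and had 8.71, 9.98 and 15.4 FPKM in mutants and 12.0, 18.6 and 21.4 FPKM in controls. The groups overlapped through control 1, and the log2 fold change was -0.57 (SE 0.26; limma adjusted p = 0.767 without the block and 0.0307 with it). Xirp1, the Xin actin-binding protein of intercalated discs, had 12.2, 12.5 and 19.6 FPKM in mutants and 21.9, 22.3 and 32.3 FPKM in controls, without overlap. Its log2 fold change was -0.76 (SE 0.22; limma adjusted p = 0.429 without the block and 0.00273 with it). Neb, the nebulin of skeletal muscle thin filaments, stayed at 0.0429 to 0.0957 FPKM in mutants and 0.0277 to 0.0720 FPKM in controls.

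Nrap, a nebulin-related anchoring protein of forming myofibrils, was below the mean of 1 FPKM and was not tested with the rest, yet its groups lay far apart. It had 0.364, 0.224 and 0.359 FPKM in mutants and 1.05, 0.789 and 1.07 FPKM in controls, which were 46, 33 and 54 reads in mutants and 135, 135 and 158 reads in controls. The mutant mean was 32.5% of the control mean. With no filter on low values its log2 fold change was -0.58 (SE 0.09), and it did not pass (limma adjusted p = 0.209 without the block and 0.0964 with it). With no filter 0.0116% of 25888 genes were called lower and 0.0193% higher without the block, and 0.0811% lower and 0.0155% higher with it, among the lower ones Csrp3, Actn2, Ldb3, Xirp1 and Des. Exons of Nrap share 268 bases with Habp2 and 108 with Gm17197, both on the opposite strand.

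Of the other 6 genes, Myoz2 was low, and the rest, Neb among them, were at or near 0 in both groups. Myoz2, the calsarcin of heart and slow muscle, had 28 to 62 reads in mutants and 34 to 56 in controls, at 0.306 to 0.788 FPKM in mutants and 0.320 to 0.608 FPKM in controls, and its groups overlapped, as did those of Neb. Mypn, a nebulin- and alpha-actinin-binding Z-disc protein, had 3 to 8 reads in mutants and 7 to 13 in controls, and myotilin (Myot) had 5 or 6 reads in mutants and 6 to 10 in controls. The M-protein gene Myom2 had 0 to 2 reads in mutants and 1 to 6 in controls. Xirp2 was listed at 0 in all 3 mutant libraries and had 1 or 2 reads in the controls, so differences in Mypn, Myot, Myom2 and Xirp2 were not detectable at this depth.

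Among the PDZ-LIM genes, whose proteins bind alpha-actinin, the block gave a call for Pdlim5 and for none of Pdlim1, Pdlim3 and Pdlim7. Pdlim5, or ENH, had 12.3, 13.3 and 18.3 FPKM in mutants and 17.0, 21.3 and 24.4 FPKM in controls, with overlap through control 1 (log2 fold change -0.49, SE 0.18; limma adjusted p = 0.624 without the block and 0.0186 with it). Pdlim3, or ALP, had 62.1, 46.2 and 51.4 FPKM in mutants and 79.2, 51.0 and 58.9 FPKM in controls (log2 fold change -0.23, SE 0.19; limma adjusted p = 0.976 without the block and 0.0963 with it). Pdlim1, or CLP36, which is also made in many cells outside muscle, had 19.8, 20.9 and 19.6 FPKM in mutants and 28.3, 20.1 and 22.8 FPKM in controls (log2 fold change -0.21, SE 0.13; limma adjusted p = 0.884 without the block and 0.289 with it). Pdlim7, or enigma, had 72.0, 59.8 and 58.0 FPKM in mutants and 86.9, 52.2 and 61.9 FPKM in controls, a log2 fold change of -0.06 (SE 0.20; limma adjusted p = 1.00 without the block and 0.770 with it) whose sign turned with the scaling to equal sums.

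Of the FHL genes, LIM proteins that bind titin, actin and signalling proteins, Fhl1 fell with the block. It had 35.2, 52.9 and 57.6 FPKM in mutants and 61.6, 75.1 and 84.1 FPKM in controls, without overlap (log2 fold change -0.61, SE 0.21; limma adjusted p = 0.557 without the block and 0.0137 with it). Fhl2, the form best known from heart, had 19.2, 14.1 and 19.0 FPKM in mutants and 19.1, 15.4 and 20.2 FPKM in controls, a log2 fold change of -0.07 (SE 0.15; limma adjusted p = 1.00 without the block and 0.488 with it). Fhl3 had 21.0, 18.2 and 18.0 FPKM in mutants and 25.9, 16.9 and 17.7 FPKM in controls, a log2 fold change of -0.06 (SE 0.17; limma adjusted p = 1.00 without the block and 0.750 with it), and turned positive with scaling to equal sums. Values of Fhl2 and Fhl3 overlapped widely between the groups.

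The balance within a library was then set side by side for 15 pairs of related or neighbouring genes, chosen after their values were seen. The mutant ratios lay below the control ratios without overlap in 8 of the 15 and overlapped in the other 7. The same count over all gene pairs was not made, so 8 of 15 describes only these chosen pairs. Des over Vim, the desmin gene against the vimentin gene of mesenchymal cells, was -0.30, -0.34 and -0.19 on the log2 scale in mutants and -0.02, 0.07 and 0.18 in controls. Actn2 over Actn4, its counterpart outside muscle, was -0.39, -1.01 and -0.57 in mutants and 0.37, -0.11 and 0.24 in controls. Flnc over Flna was -1.64, -1.67 and -1.49 in mutants and -1.43, -1.32 and -0.97 in controls. Each of these had a two-sided exact permutation p of 0.1, the smallest possible, and an adjusted p of 0.188 over the 15 ratios, so none could pass. Fhl1 over Fhl2 averaged 1.41 ± 0.51 in mutants and 1.95 ± 0.29 in controls (SD, n = 3 each), with overlap (exact permutation p = 0.2), and Pdlim5 over Pdlim7 averaged -2.05 ± 0.42 in mutants and -1.62 ± 0.58 in controls (exact permutation p = 0.3). Within same-numbered pairs the difference of Fhl1 over Fhl2 was -0.79, -0.37 and -0.45, and that of Pdlim5 over Pdlim7 was -0.16, -0.83 and -0.30, all below 0. That of Pdlim5 over Pdlim3 was -0.08, -0.50 and -0.20. For Pdlim5 over Pdlim1 it was 0.07, -0.70 and -0.19, so the sign turned in pair 1. The exact test does not use the pairing, and with 3 against 3 libraries it could not pass for any ratio.

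Some of the genes are neighbours in the genome, and their levels were set side by side within each library. On GRCm38, chromosome 1, Des lies on the plus strand from 75360329 to 75368579, Speg on the plus strand from 75375297 to 75432320 and Obsl1 on the minus strand from 75479310 to 75506452. Des and Speg are 6717 bases apart. Des over Speg was 2.08, 1.62 and 2.03 in mutants and 2.98, 2.60 and 2.84 in controls, so the ratio was lower in each mutant library than in any control library (difference -0.90, exact permutation p = 0.1, adjusted p = 0.188 over the 15 ratios). On chromosome 14, Synpo2l (20658946 to 20668354) and Myoz1 (20649107 to 20656540) lie 2405 bases apart on the minus strand. Synpo2l over Myoz1 was 2.54, 3.27 and 3.36 in mutants and 3.53, 4.03 and 4.14 in controls (difference -0.84, exact permutation p = 0.1, adjusted p = 0.188 over the 15 ratios). Neither ratio could pass in this design, and both were chosen after their values were seen.

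**Figure D3:**
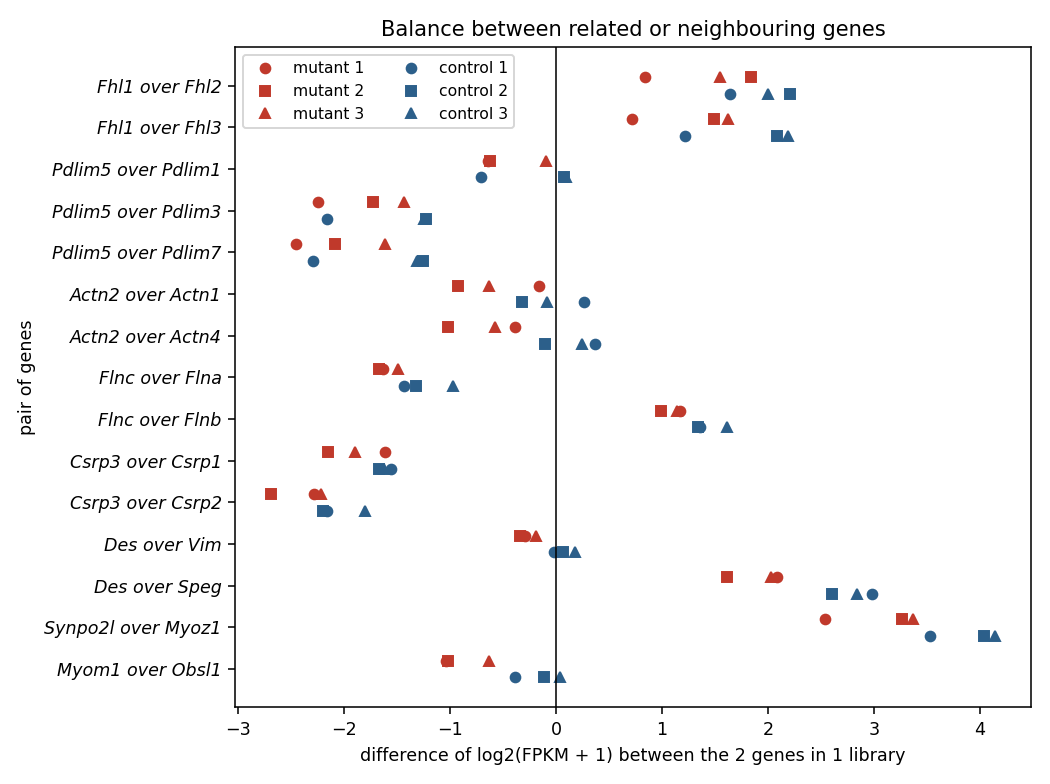
Difference of log2(FPKM + 1) between 2 genes within a library for 15 pairs, with the mutant libraries in red above the control libraries in blue and symbols for library numbers. Des over Speg, Synpo2l over Myoz1 and Myom1 over Obsl1 separate the groups, and Fhl1 over Fhl2 and the Pdlim5 ratios overlap.

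Against the mean log2 level of the 9 cardiomyocyte markers in the same library, which was 8.20, 7.58 and 7.89 in mutants and 8.68, 8.004 and 8.37 in controls, the scaffold genes lay on both sides. Of the 25 tested, 14 were lower and 11 higher in mutants relative to the markers, described without a test. The marker mean was itself lower in mutants by a log2 difference of -0.46, so a gene with equal levels in both groups scores about that much above 0 on this scale. The groups did not overlap for 4 that were lower, against 0.443% of all genes tested, namely Smpx (relative log2 difference -0.58), Actn2 (-0.38), Csrp3 (-0.29) and Des (-0.25). They did not overlap for 7 that were higher, against 20.5% of all genes tested, namely Myoz1 (0.72), Speg (0.65), Obsl1 (0.57), Pdlim7 (0.40), Fhl3 (0.40), Fhl2 (0.39) and Pdlim3 (0.23). Ttn (0.12), Flnc (0.09), Tcap (-0.01), Pdlim5 (-0.03) and Cap2 (-0.06) lay near 0 on this relative scale. The 9 markers did not move alike. Their own log2 fold changes were -0.80 (Tnnt2), -0.77 (Tnni1), -0.68 (Tnnc1), -0.65 (Myh7), -0.51 (Myl7), -0.51 (Myl4), -0.10 (Myh6), -0.09 (Nkx2-5) and -0.03 (Myl2). The log2 fold changes of Actn2 (-0.84), Csrp3 (-0.75) and Des (-0.71) lay near those of Tnnt2, Tnni1 and Tnnc1.

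The libraries numbered 1 differed from the others of their group along gene length. In these libraries Ttn was lower than the mean of the other libraries of its group, with a shift of -0.91 in mutants and -1.24 in controls on the log2 scale, and Tcap was higher, with a shift of 0.85 in mutants and 0.91 in controls. The merged exons of Ttn are 116825 bases long and those of Tcap 948. Over the 25 genes, Spearman's rho between exon length and this shift was -0.59 in mutants and -0.70 in controls, described over genes that share the same libraries and with no p. Between exon length and the mutant-control fold change it was 0.10. With both libraries numbered 1 left out, 15 of the genes fell with the block, and Ttn (log2 fold change -0.45) took the place of Tcap among them. Without the libraries numbered 2 or 3, 13 fell each time. Ankrd1 did not pass without the libraries numbered 2, Tcap without those numbered 1 or 3, and Flnc without those numbered 2 or 3.

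**Figure D4:**
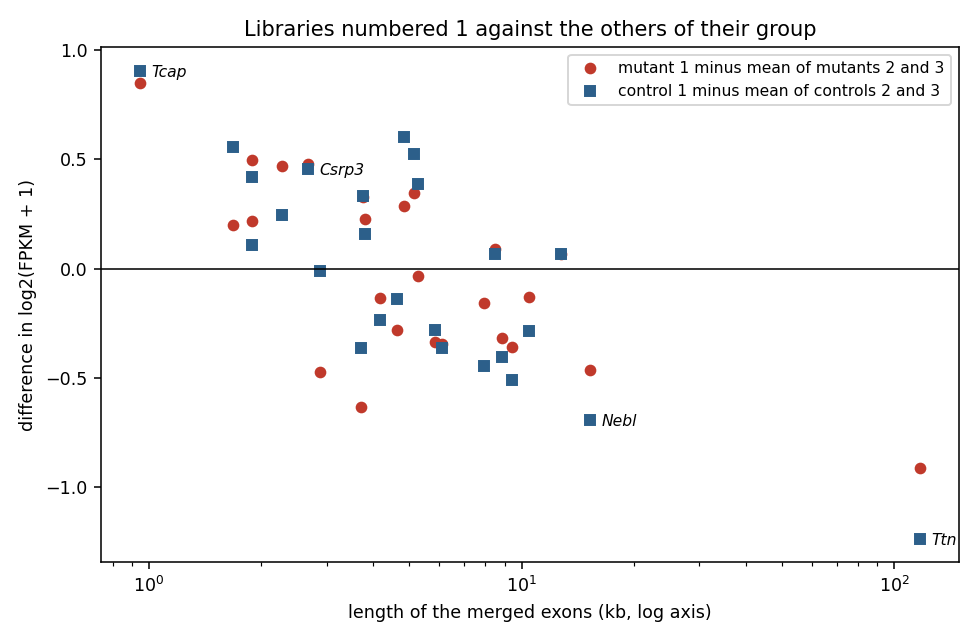
Difference in log2(FPKM + 1) between the library numbered 1 and the mean of the other libraries of its group, against the length of the merged exons on a log axis, for the 25 genes tested, with mutants in red and controls in blue. The short gene Tcap lies above 0 and the long genes Ttn and Nebl below it, in both groups. Not all genes follow length: in both groups Speg and Obsl1 lie slightly above 0 and the shorter Fhl1 below it.

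Other genes of the same structures were counted from lists chosen with earlier results of these data known. Of 34 further Z-disc, M-band and titin-linked genes 28 were tested, and 1 fell without the block and 12 with it, against 0.150% and 3.70% of all genes, with 0 higher in either limma test (1 and 2 higher at an unadjusted p under 0.05). Their median log2 fold change was -0.32. Itgb1bp2, the melusin gene, passed without the block, at 3.90 ± 0.60 FPKM in mutants and 9.31 ± 1.00 FPKM in controls (SD, n = 3 each; limma adjusted p = 0.0412 without the block and 0.00454 with it, and 0.000406 to 0.264 over the 22 settings). The muscle ubiquitin ligase gene Trim55 averaged 23.3 FPKM in mutants and 48.6 FPKM in controls. Lmcd1, a LIM protein gene, averaged 1.22 FPKM in mutants and 3.03 FPKM in controls, and the F-box gene Fbxl22 averaged 11.5 FPKM in mutants and 24.9 FPKM in controls. For these 3 the limma adjusted p was under 0.05 with the block and above it without.

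Of 29 further intermediate filament, intercalated disc and costamere genes 24 were tested. None passed without the block in limma or in voom (5 lower and 0 higher at an unadjusted p under 0.05 by each, against 4.32% of all genes lower by limma). With the block 7 fell and 0 rose in limma, against 3.70% and 1.42% of all genes. At an unadjusted p under 0.05 with the block, 10 were lower and 0 higher, against 1716 and 1183 of all 12650 genes tested. The median log2 fold change of the 24 was -0.21. Jup, or plakoglobin of cell junctions, had 22.2 ± 0.53 FPKM in mutants and 30.2 ± 3.91 FPKM in controls (SD, n = 3 each), and Pkp2, a desmosomal plakophilin, averaged 12.9 FPKM in mutants and 17.9 FPKM in controls. Of the sarcoglycan genes, Sgca averaged 2.01 FPKM in mutants and 3.43 FPKM in controls, and Sgcb 3.75 FPKM in mutants and 4.89 FPKM in controls. These 4, and Vim, Dsg2 and Cdh2, were the genes that fell with the block.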

How the data were processed

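RNA was extracted from pooled aDPW and OFT tissue, 3 pools per group, and sequenced after NEBNext Ultra library preparation, per the labels' protocols. The authors deposited FPKM values (fragments per length and depth) for 25888 genes, each library in a column. Per the submitters' processing notes, the tools were Cufflinks 2.2.1, STAR 2.5.1b and bcl2fastq 2.18 and the build mm8, and the notes as given here name no annotation, strand setting or filter. A reference name table gave symbols to all but 129 IDs.

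Within a library, low FPKM values are multiples of what 1 read is worth, so reads were recovered, within 0.001 of whole numbers. This is no check, since the multiple was chosen to make them whole. For 78.9% of 25759 genes, 23 of the 32 members among them, the exon length recovered with the reads matched GENCODE M21 on GRCm38. For the other 9 (Ankrd1, Actn2, Ldb3, Myoz1, Mypn, Cap2, Neb, Pdlim3 and Myom1) the recovered reads could be a whole fraction of the true number. Coordinates and lengths are from GENCODE M21.

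Groups were compared on log2(FPKM + 1) by a two-sided test in limma 3.58.1 (R 4.3.3), with a mean-variance trend and Benjamini-Hochberg adjustment over the 12650 genes with a mean of at least 1 FPKM, at a threshold of 0.05. Fold changes on this scale understate those of low genes. The groups share replicate numbers, and deviations from the group means of same-numbered libraries correlated at 0.73, 0.44 and 0.44 over genes, which was read as pairing. Mutant 3 and control 2 also had 0.31. The pairing comes from the data, not from the labels. Deviations of 3 libraries from their mean sum to 0, so these correlations are not independent of each other. The fit without the block was kept as the main test, and values with the block stand beside it. Voom was run on recovered reads with upper-quartile scaling. No 2 libraries held identical values.

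All 32 members are reported. Of the other lists, up to 4 genes with the smallest p were described, with the rest that fell given by name or count. Members and lists were chosen with earlier results of these data known.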

Additional observations from a re-analysis of the deposited data

How the results depend on the processing

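Depth limits Mypn, Myot, Myom2 and Xirp2, which had at most 13 recovered reads in a library. Without the block none of the 25 genes tested passed under any scaling, pseudocount or filter tried, and 13 fell with array weights. With the block 15 fell, with block and array weights 15 and with voom and the block 16, and 1 (Speg) was then called higher. Testing all genes with the block, chosen after seeing the data, left 5 (Csrp3, Actn2, Ldb3, Xirp1 and Des). Leaving out 1 library without the block gave 0 each time, and leaving out both libraries of a number with the block gave 13 to 15. The median of the genes kept its sign, from -0.64 to -0.36 over all 22 settings. Over all genes the calls were 19 lower and 3 higher in the main test, 468 and 180 with the block, 349 and 193 with array weights, 669 and 281 with both, and 723 and 567 with voom and the block. Without a filter they were 3 and 5, with a mean of at least 5 FPKM 11 lower and with equal sums 9 lower. Without 1 library they were 0 to 2 lower and 0 to 2 higher, and with the block and without replicate 1, 2 or 3 in both groups 246, 229 and 210 lower and 94, 54 and 80 higher. Hand2 kept its direction throughout. In the main test it did not pass (log2 fold change -1.78, limma adjusted p = 0.109), and it passed in 8 of the 22 alternative settings. It passed with the block (-1.78), array weights (-1.76), both (-1.87), equal sums (-1.72) and voom with the block (-1.79), and with the block and without both libraries of number 1, 2 or 3 (-1.81, -1.92 and -1.60), and ranged from -2.03 to -1.55 with 1 library left out. The members near 0 changed sign in some settings. Pdlim7 was 0.0021 with array weights, 0.0042 with equal sums, 0.049 with the block and without the libraries numbered 1, 0.0025 without mutant replicate 3, and from -0.22 to 0.15 over the settings without 1 library. Fhl3 was 0.033, 0.0031 and 0.063 in the first 3 of these settings and from -0.16 to 0.13 without 1 library. Fhl2 was from -0.18 to 0.070 without 1 library. The causes were not tested. The edgeR test named among the alternatives was not run, since the deposited unit is FPKM. Protein sequences were not used here.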
